A study of Mus musculus with 9 samples.

Results

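The subject is 10 nuclear genes for subunits of cytochrome c oxidase, the last enzyme of the mitochondrial respiratory chain: Cox4i1, Cox4i2, Cox5a, Cox6a1, Cox6a2, Cox6c, Cox7a1, Cox7a2, Cox8a and Cox8b. They were chosen by name out of 38293 genes in the count table, 8 of them as isoform pairs and Cox5a and Cox6c as single subunits, and all 10 passed the filter on low counts. Ventricular RNA was sequenced at postnatal day 7 (P7) from 5 Arid1a f/f control hearts and 4 αMHC-Cre;Arid1a f/f hearts (Arid1a cKO). Both groups carried the floxed Arid1a alleles, the controls without Cre, and pups of both sexes on a C57B/6 J background were used per the study's methods. Cre was driven by the αMHC promoter, which acts in cardiomyocytes, while RNA came from the whole ventricle with its fibroblasts, endothelium and blood. The question for these genes was whether the balance of muscle and ubiquitous isoforms differs between control and Arid1a cKO hearts. Arid1a encodes a subunit of SWI/SNF that contacts DNA, SWI/SNF being a complex that remodels chromatin.

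Cytochrome c oxidase passes electrons from cytochrome c to oxygen and pumps protons across the inner mitochondrial membrane. Its catalytic core is encoded by mitochondrial DNA, and the nuclear subunits around it serve assembly, stability and regulation. Subunits VIa, VIIa and VIII each exist as a form found in most tissues (Cox6a1, Cox7a2, Cox8a) and a form of heart and skeletal muscle (Cox6a2, Cox7a1, Cox8b), and the muscle forms are known to replace the ubiquitous ones as the heart matures. Subunit IV has the common form Cox4i1 and a second form, Cox4i2, that is best known from the lung and from low oxygen and is not a muscle isoform. Cox5a and Cox6c have no isoform partner here.

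Promoter sequence is shown for the 2 ubiquitous isoforms that were higher in cKO, Cox6a1 and Cox8a, and for the muscle partner Cox8b. Each line gives the 250 bases before the RefSeq gene start (GRCm38), 5′ to 3′ on the gene's strand, with motif matches in capitals.
Cox6a1 chr5:115348959-115349208 (- strand): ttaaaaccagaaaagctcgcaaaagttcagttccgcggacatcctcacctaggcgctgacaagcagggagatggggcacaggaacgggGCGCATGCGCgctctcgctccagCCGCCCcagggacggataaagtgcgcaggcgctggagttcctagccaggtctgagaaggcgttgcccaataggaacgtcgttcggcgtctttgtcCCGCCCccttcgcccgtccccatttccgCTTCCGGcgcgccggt
Cox8a chr19:7217617-7217866 (- strand): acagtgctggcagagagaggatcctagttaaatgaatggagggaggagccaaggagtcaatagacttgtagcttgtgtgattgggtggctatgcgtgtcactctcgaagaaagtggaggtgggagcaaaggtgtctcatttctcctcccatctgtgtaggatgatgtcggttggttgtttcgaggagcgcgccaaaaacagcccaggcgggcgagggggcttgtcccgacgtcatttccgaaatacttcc
Cox8b chr7:140900447-140900696 (- strand): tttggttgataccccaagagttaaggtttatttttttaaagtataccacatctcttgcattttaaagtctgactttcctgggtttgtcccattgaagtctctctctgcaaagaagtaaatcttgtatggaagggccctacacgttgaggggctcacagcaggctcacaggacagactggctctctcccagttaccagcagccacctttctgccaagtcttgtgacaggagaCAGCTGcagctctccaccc
RefSeq windows were matched for 6 of the 10 genes; Cox4i1, Cox4i2, Cox6a2 and Cox6c were not matched. The letters searched, on both strands, were CCGGAAG for ETS factors, GGGCGG for the box of Sp factors (GC box), CAGCTG for the E-box, AAGGTCA for the ERR half-site, GGAATG for TEAD factors, TATAAA for the TATA box and the palindromic NRF-1 motif, which is the first run of capitals in the Cox6a1 line. The Cox6a1 window held 1 NRF-1 match, at position -162 from the start, 1 ETS match, at position -16, and 2 GC boxes. On the printed strand the GC boxes and the ETS match appear as their reverse complements. An NRF-1 match was present in 0.782% of the 32851 promoter windows of the same length, an ETS match in 6.91% and a GC box in 32.7%. The Cox8b window held 1 E-box match, at position -19, which 13.0% of windows had. The Cox8a and Cox7a1 windows held no match, the Cox5a window held 1 GC box and 1 TEAD match (12.6% of windows), and the Cox7a2 window held 1 GC box. The remaining 2 motifs were in none of the 6 windows, where 4.08% of all windows held the ERR half-site and 12.4% the TATA letters. These are matches of letters only, and no binding was measured. GC content was 62.8% in the Cox6a1 window, 52.8% in that of Cox8a and 47.2% in that of Cox8b.

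The libraries held 31011055 to 40073801 counts and Spearman correlations within a group were 0.982 to 0.995. Arid1a itself was at 128.0 to 148.1 CPM (counts per 1000000 of the TMM-scaled library total) in controls and 100.3 to 112.9 CPM in cKO, and its log2 fold change was -0.39 (SE 0.06, edgeR adjusted p = 0.00132). The reads cover the whole gene and all ventricular cells, and fewer cells of a type and less RNA per cell cannot be told apart in them. The libraries also differed in Rps3a3, a copy of a ribosomal protein gene, in a way that cut across genotype. Control replicates 1 and 2 and cKO replicates 1, 2 and 3 were at 0.3445 to 0.5211 CPM (Rps3a3-low), and control replicates 3, 4 and 5 and cKO replicate 4 at 99.7 to 112.3 CPM (Rps3a3-high). The labels name no batch, so changes within each set stand beside the results for the 10 genes and their ratios below.

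Of the 10 genes, Cox6a1 and Cox8a were higher and Cox6c was lower in cKO at an adjusted p under 0.05 (edgeR, adjusted over all 15318 genes tested), and the other 7 did not pass. Among all tested genes 16.3% passed, 8.25% higher and 8.03% lower. Cox6a1 was the only gene of the 10 that also passed the fold threshold of 1.5, which 6.72% of tested genes did, 4.01% upward. The same 3 genes were those without overlap between the groups, as were 16.7% of tested genes, 8.16% higher and 8.58% lower in cKO. The median log2 fold change of the 10 was -0.04, against 0.01 for all tested genes. The summed level of the 10 genes was 3475 to 4374 CPM in controls and 3513 to 4332 CPM in cKO, so the sums overlapped. In the 5 Rps3a3-low libraries alone 0 of the 10 genes passed, where 5.44% of all genes tested did, and the log2 fold changes there were 0.78 for Cox6a1, 0.38 for Cox8a and -0.28 for Cox6c.

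**Figure D1:**
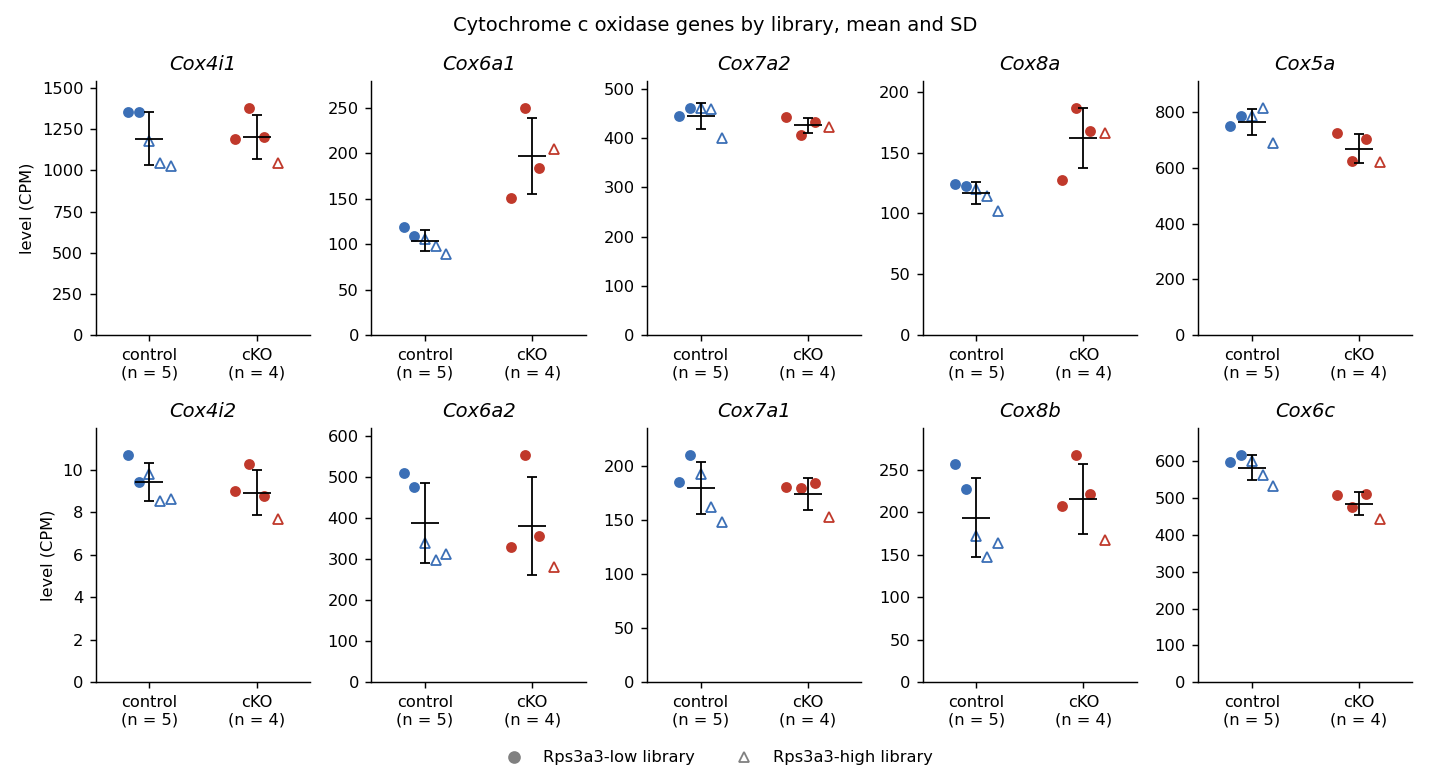
Level of each gene in CPM (y axis, from 0) in 5 control and 4 cKO libraries, with the mean and SD as bars; filled circles are Rps3a3-low and open triangles Rps3a3-high libraries. All 4 cKO points lie above all control points for Cox6a1 and Cox8a and below them for Cox6c, and the groups overlap in the other 7 panels.

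Cox6a1 encodes the ubiquitous form of subunit VIa, a subunit that takes part in the regulation of the enzyme by adenine nucleotides. The gene (ENSMUSG00000041697, GRCm38 chromosome 5, 115345642 to 115348981, minus strand) was measured at 118.9, 108.8, 105.4, 97.69 and 89.01 CPM in the 5 controls (replicates 1 to 5), against 150.7, 249.5, 183.7 and 204.5 CPM in the 4 cKO hearts (replicates 1 to 4). Every cKO library lay above every control library. The mean was 104.0 ± 11.31 CPM in controls and 197.1 ± 41.37 CPM in cKO (SD, n = 5 and n = 4), a 1.9-fold difference. The log2 fold change was 0.92 (SE 0.13, edgeR adjusted p = 0.000662). Cox6a1 passed both thresholds in 18 of 19 alternatives and kept its direction in all, over a range of 0.69 to 1.03. The exception used the 5 Rps3a3-low libraries alone and gave 0.78 with an adjusted p of 0.085 by edgeR, and the difference within the Rps3a3-high set was 1.07.

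Cox6a2, the muscle form of the same subunit (ENSMUSG00000030785, chromosome 7, 128205435 to 128206387, minus strand), did not show such a difference. It was at 508.5, 475.6, 339.1, 298.1 and 313.3 CPM in the 5 controls (replicates 1 to 5), against 330.1, 552.3, 355.9 and 279.7 CPM in the 4 cKO hearts (replicates 1 to 4). The highest library of all was cKO replicate 2 and the lowest cKO replicate 4, and the groups overlapped throughout. Within the controls, both Rps3a3-low libraries lay above the 3 Rps3a3-high ones. The means were 386.9 ± 97.81 CPM in controls and 379.5 ± 119.5 CPM in cKO (SD, n = 5 and n = 4), with a log2 fold change of -0.03 (SE 0.24, edgeR adjusted p = 0.95). With coefficients of variation of 25.3% in controls and 31.5% in cKO it was the most variable of the 10 genes in either group. Its log2 fold change was -0.25 among Rps3a3-low libraries, -0.18 among Rps3a3-high ones and -0.23 with the library set as a term in the fit (edgeR adjusted p = 0.32), so the value near 0 depended on how the sets were treated. Leaving out single libraries moved its log2 fold change between -0.27 and 0.09.

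Cox8a, the ubiquitous form of the small membrane subunit VIII (ENSMUSG00000035885, chromosome 19, 7215153 to 7217616, minus strand), was the other isoform that was higher in cKO. It was measured at 124.5, 122.8, 120.1, 114.4 and 102.1 CPM in the 5 controls (replicates 1 to 5), against 127.8, 186.4, 168.0 and 166.0 CPM in the 4 cKO hearts (replicates 1 to 4). The groups did not overlap, although cKO replicate 1 lay close to the highest controls. The mean was 116.8 ± 9.065 CPM in controls and 162.0 ± 24.63 CPM in cKO (SD, n = 5 and n = 4), 1.39-fold higher, with a log2 fold change of 0.47 (SE 0.10, edgeR adjusted p = 0.00658). It passed the adjusted p threshold in 18 of 19 alternatives but the fold threshold in 0 of them. Fitted to the 5 Rps3a3-low libraries it changed by 0.38 (edgeR adjusted p = 0.226), and the Rps3a3-high libraries differed by 0.57. With trends over GC content and length removed the change was 0.30.

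Cox8b, the muscle form of subunit VIII (ENSMUSG00000025488, chromosome 7, 140898945 to 140900446, minus strand), was at 257.1, 228.0, 172.0, 147.5 and 163.5 CPM in the 5 controls (replicates 1 to 5). In the 4 cKO hearts (replicates 1 to 4) it was at 207.9, 267.3, 221.3 and 167.1 CPM. The groups overlapped, and in both the Rps3a3-high libraries were the lowest. The log2 fold change was 0.16 (SE 0.18, edgeR adjusted p = 0.612), and the Rps3a3-low libraries gave -0.06 and the Rps3a3-high ones 0.05. The direction of Cox8b was therefore not settled.

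The subunit VIIa pair, which lies at the surface of the complex and takes part in joining it to complex III, showed no difference that passed the test. Cox7a1, the muscle form (ENSMUSG00000074218, chromosome 7, 30184144 to 30186078, plus strand), was at 185.5, 210.2, 193.1, 162.3 and 148.8 CPM in the 5 controls (replicates 1 to 5), against 181.2, 179.8, 185.0 and 152.7 CPM in the 4 cKO hearts (replicates 1 to 4). In cKO, replicate 4 lay below the other values, which stood close together. Its log2 fold change was -0.04 (SE 0.10, edgeR adjusted p = 0.81), and it was -0.12 among the Rps3a3-low libraries and -0.14 among the others. Cox7a2, the ubiquitous form (ENSMUSG00000032330, chromosome 9, 79755361 to 79759878, minus strand), was at 445.2, 460.6, 460.5, 459.2 and 400.0 CPM in the 5 controls (replicates 1 to 5), against 443.5, 406.8, 431.9 and 421.9 CPM in the 4 cKO hearts (replicates 1 to 4). Control replicate 5 lay below all other libraries. Its log2 fold change was -0.06 (SE 0.06, edgeR adjusted p = 0.528), with -0.08 for Rps3a3-low and -0.06 for Rps3a3-high libraries.

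Subunit IV, the largest nuclear subunit and a site of regulation by ATP, was represented almost wholly by its common form. Cox4i1 (ENSMUSG00000031818, chromosome 8, 120668222 to 120674207, plus strand) was at 1356, 1358, 1179, 1046 and 1027 CPM in the 5 controls (replicates 1 to 5), against 1189, 1378, 1201 and 1047 CPM in the 4 cKO hearts (replicates 1 to 4). It had the highest level of the 10 genes, and its lowest values in each group were in Rps3a3-high libraries. Between the groups the log2 fold change was 0.01 (SE 0.10, edgeR adjusted p = 0.948), with negative values in 7 alternatives and inside both library sets, -0.11 for Rps3a3-low and -0.05 for Rps3a3-high libraries. Cox4i2 (ENSMUSG00000009876, chromosome 2, 152754173 to 152765037, plus strand) was at 10.68, 9.437, 9.801, 8.552 and 8.629 CPM in the 5 controls (replicates 1 to 5), against 8.985, 10.25, 8.773 and 7.671 CPM in the 4 cKO hearts (replicates 1 to 4). These levels rest on 267 to 387 counts a library, far fewer than for any other of the genes. The groups overlapped and the log2 fold change was -0.08 (SE 0.11, edgeR adjusted p = 0.685), with -0.11 for Rps3a3-low and -0.23 for Rps3a3-high libraries.

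Cox6c, a small membrane subunit without an isoform partner (ENSMUSG00000014313, chromosome 15, 35925886 to 35938246, minus strand), was lower in cKO. It was at 599.3, 616.4, 600.8, 563.0 and 532.1 CPM in the 5 controls (replicates 1 to 5), against 509.5, 475.8, 511.7 and 444.7 CPM in the 4 cKO hearts (replicates 1 to 4). All cKO libraries lay below all control libraries. The mean was 582.3 ± 34.22 CPM in controls and 485.4 ± 31.71 CPM in cKO (SD, n = 5 and n = 4), with a log2 fold change of -0.26 (SE 0.07, edgeR adjusted p = 0.0184). It passed in 17 of 19 alternatives. Without cKO replicate 4 it was -0.22 with an adjusted p of 0.0553 by edgeR, and in the 5 Rps3a3-low libraries it was -0.28 with an adjusted p of 0.0739 by edgeR. The Rps3a3-high libraries differed by -0.35. The study named Cox6c and Cox5a as maturation genes from these samples, so their direction is not independent evidence. By qPCR the study also reported Cox5a as lower in cKO hearts.

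Cox5a, a matrix-side subunit known to bind a thyroid hormone metabolite (ENSMUSG00000000088, chromosome 9, 57521274 to 57532426, plus strand), did not pass. It was at 748.7, 785.0, 786.8, 813.4 and 690.5 CPM in the 5 controls (replicates 1 to 5), against 723.7, 625.3, 704.6 and 622.2 CPM in the 4 cKO hearts (replicates 1 to 4). Control replicate 5 fell among the cKO values and the other 4 controls lay above all of them. The log2 fold change was -0.19 (SE 0.07, edgeR adjusted p = 0.088), and without control replicate 5 it was -0.23 with an adjusted p of 0.0477 by edgeR. Rps3a3-low libraries differed by -0.16 and Rps3a3-high ones by -0.30.

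**Figure D2:**
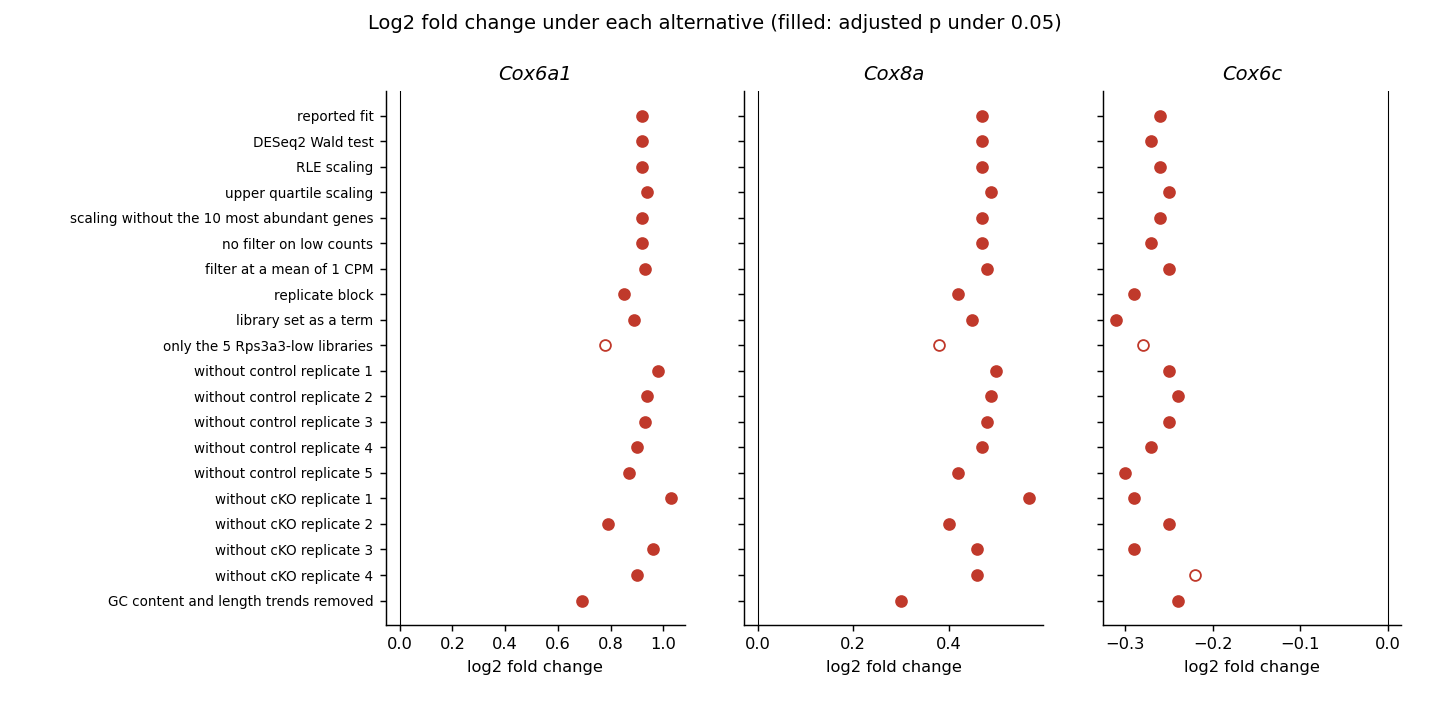
Log2 fold change, cKO over control (x axis), of Cox6a1, Cox8a and Cox6c in the reported fit and in each of 19 alternatives (rows); filled points have an adjusted p under 0.05. All points keep the sign of the reported fit, and the fit to the 5 Rps3a3-low libraries is open in all 3 panels.

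Levels were compared between genes per kilobase of the principal transcript (RPKM, here CPM divided by transcript length in kilobases). In controls the order was Cox4i1 (1560 RPKM), Cox5a (1186 RPKM), Cox6c (789.0 RPKM), Cox7a2 (675.4 RPKM), Cox6a2 (569.0 RPKM), Cox8b (537.8 RPKM), Cox7a1 (457.9 RPKM), Cox8a (212.3 RPKM), Cox6a1 (182.1 RPKM) and Cox4i2 (12.85 RPKM). Neighbours from Cox7a2 to Cox7a1 overlapped over the 5 controls, as did Cox8a and Cox6a1, and the other neighbours in the order did not. In cKO, Cox6a1 stood at 345.2 ± 72.45 RPKM and Cox8a at 294.6 ± 44.79 RPKM (SD, n = 4), in the opposite order and again overlapping. The order depends on the length used. Per kilobase of all annotated exons joined, Cox6c stood at 163.3 RPKM and Cox5a at 364.1 RPKM in controls, below Cox6a2 at 569.0 RPKM and Cox8b at 537.8 RPKM.

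The isoform ratio was then taken within each library, as log2 of the muscle over the ubiquitous gene's counts per kilobase of joined exons, and for subunit IV as Cox4i2 over Cox4i1. Such a ratio does not depend on library scaling. The 4 pairs were tested by two-sided exact permutation of the group labels over the 9 libraries, with Benjamini-Hochberg adjustment over the pairs. The smallest p this allows is 0.00794.

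The muscle form made up less of the subunit VIa messages in cKO. The log2 ratio of Cox6a2 to Cox6a1 was 2.14, 2.17, 1.73, 1.66 and 1.86 in the 5 controls (replicates 1 to 5), against 1.18, 1.19, 1.0 and 0.5 in the 4 cKO hearts (replicates 1 to 4). The lowest control lay above the highest cKO library, although Cox6a2 alone overlapped between the groups. The difference of the means was -0.95 (SE 0.19, exact permutation p = 0.00794, adjusted p = 0.0317), a ratio 0.519 times that of controls. Expressed as a share, Cox6a2 was 78.9% ± 2.7 of the pair in controls (SD, n = 5) and 66.0% ± 5.16 in cKO (SD, n = 4). With principal transcript lengths these shares were 75.3% and 61.3%. The Rps3a3-low libraries differed by -1.04 and the Rps3a3-high ones by -1.25, and permutation within the sets gave an exact p of 0.025, the smallest it allows, or 0.05 after adjustment. Leaving out any 1 library gave -1.02 to -0.79 with adjusted p of 0.0571 to 0.114 by exact permutation, as the smallest possible p is larger with 8 libraries. The summed level of the pair was 717.1 ± 158.0 RPKM in controls (SD, n = 5) and 838.8 ± 222.7 RPKM in cKO (SD, n = 4), and these overlapped.

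For subunit VIII the ratio of Cox8b to Cox8a overlapped between the groups. Its log2 value was 1.83, 1.67, 1.3, 1.15 and 1.46 in the 5 controls (replicates 1 to 5), against 1.48, 1.3, 1.18 and 0.79 in the 4 cKO hearts (replicates 1 to 4). The difference was -0.29 (SE 0.19, exact permutation p = 0.206, adjusted p = 0.275). Within the library sets it was larger, -0.43 among Rps3a3-low and -0.51 among Rps3a3-high libraries, with no overlap inside either set. The Rps3a3-high value rests on cKO replicate 4 alone, which had the lowest ratio of all libraries. Leaving out 1 library at a time gave differences of -0.39 to -0.16. Permutation within the sets gave an exact p of 0.025, the smallest possible, and 0.05 after adjustment. Cox8b made up 73.5% ± 3.67 of the pair in controls (SD, n = 5) and 69.4% ± 4.38 in cKO (SD, n = 4), and 71.2% and 66.8% with principal transcript lengths.

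The ratio of Cox7a1 to Cox7a2 lay below 0 in every library, so the ubiquitous form led for subunit VIIa by this measure. It was -0.44, -0.31, -0.43, -0.68 and -0.61 in the 5 controls (replicates 1 to 5), against -0.47, -0.36, -0.4 and -0.65 in the 4 cKO hearts (replicates 1 to 4). The groups overlapped over their whole range and the difference was 0.03 (SE 0.09, exact permutation p = 0.817, adjusted p = 0.817), with -0.03 and -0.07 within the sets. Cox4i2 made up 1.54% ± 0.113 of the subunit IV pair in controls (SD, n = 5) and 1.44% ± 0.0226 in cKO (SD, n = 4), and 0.822% and 0.767% with principal transcript lengths. Its log2 ratio to Cox4i1 differed by -0.10 (SE 0.05, exact permutation p = 0.127, adjusted p = 0.254), with overlap. That ratio differed by 0.01 among Rps3a3-low and -0.18 among Rps3a3-high libraries. Whether the change of the VIa ratio differed from those of the other pairs was not tested.

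**Figure D3:**
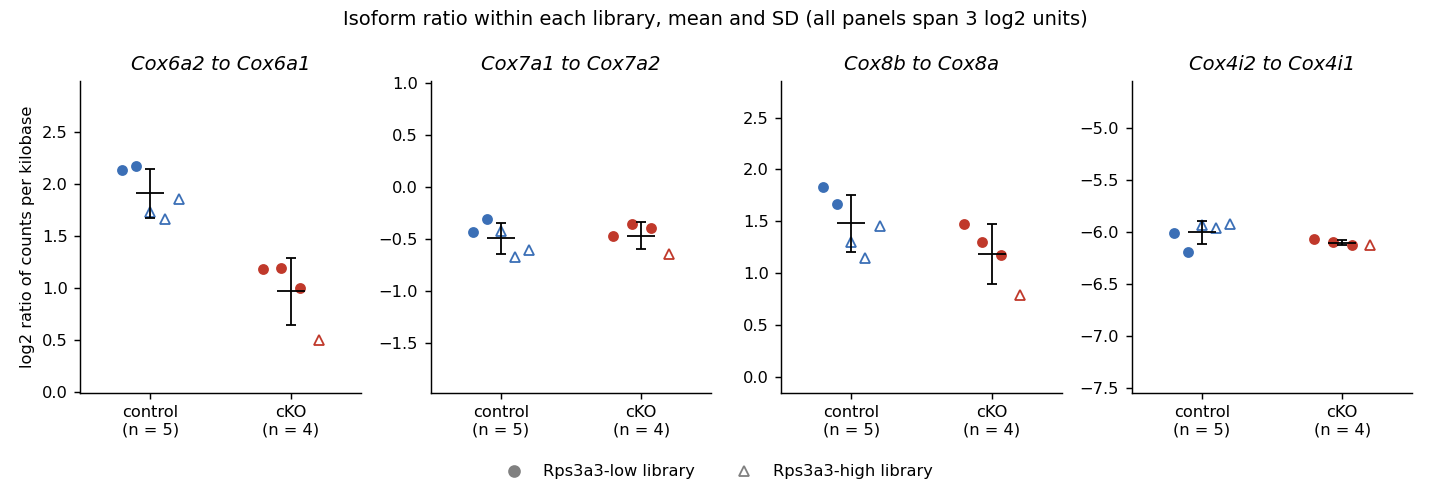
Log2 ratio of counts per kilobase (y axis, each panel spanning 3 log2 units around its own mean) for 4 isoform pairs in 5 control and 4 cKO libraries, with mean and SD; filled circles are Rps3a3-low and open triangles Rps3a3-high libraries. The groups are apart for Cox6a2 to Cox6a1, with 1.66 to 2.17 in controls and 0.5 to 1.19 in cKO, and overlap in the other 3 panels.

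Reads of the 2 members of a pair were distinct, since their principal transcripts shared no run longer than 14 bases against a read length of 75. Within the annotation, 32 of 497 windows of 75 bases in Cox6a1 (6.439%) also matched the processed pseudogene AC148174.2, and 71 of 664 in Cox6c (10.693%) matched the pseudogene Cox6c2, which was counted at 28 to 60 reads a library. Reads from such windows may be lost or misassigned by a counter that discards multiple matches. In Cox4i1 80 of 691 windows and in Cox5a 124 of 571 lay in the opposite-strand genes Emc8 and Gm26631. In Cox6c the opposite-strand gene Vps13b shared 177 windows over all annotated transcripts and 0 in the principal one, and Vps13b was counted at 892 to 1257 reads a library, against 16387 to 21701 for Cox6c. No window was shared for the other 6 genes.

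Of 9 further nuclear genes of the enzyme, including Cox7a2l and Ndufa4, 7 were tested and 1 passed, a share near the 16.3% of all tested genes. Cox6b2, the testis form of subunit VIb, was at 2.2, 3.47, 3.38, 1.86 and 2.55 CPM in the 5 controls (replicates 1 to 5), against 7.49, 10.3, 9.9 and 8.11 CPM in the 4 cKO hearts (replicates 1 to 4). All cKO libraries lay above all controls. Cox6b2 had a log2 fold change of 1.73 (SE 0.19, edgeR adjusted p = 9.69e-05), and it passed in 19 of 19 alternatives. The other 6 lay between -0.18 and 0.09 on the log2 scale. The testis forms Cox7b2, at 0 to 7 reads a library, and Cox8c, at 0 reads in every library, were too low to test.

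Of the mitochondrially encoded core, mt-Co1 was at 37900, 39200, 45400, 42800 and 42200 CPM in the 5 controls (replicates 1 to 5), against 36600, 27900, 33200 and 29600 CPM in the 4 cKO hearts (replicates 1 to 4). It encodes the subunit with the oxygen-binding heme and copper site. All cKO libraries lay below all controls, for a log2 fold change of -0.38 (SE 0.09, edgeR adjusted p = 0.0113), with -0.24 among Rps3a3-low libraries, where it did not pass, and -0.55 among Rps3a3-high ones. The genes mt-Co2 and mt-Co3 had at most 2 and 4 reads a library, so the counts hold no usable measure of them. Whether mapping or counting of mitochondrial reads also affected mt-Co1 was not tested.

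Of 28 listed assembly factors 27 were tested and 3 passed, against 16.3% of all tested genes, which is not a result about the list. Sco2, a copper chaperone of the core subunit II, rose by 0.73 (SE 0.19, edgeR adjusted p = 0.0192), and Cmc2 rose by 0.31 (SE 0.08, edgeR adjusted p = 0.0226). Tmem177, which acts with Cox20 on core subunit II, fell by 0.35 (SE 0.09, edgeR adjusted p = 0.0177). Of 19 alternatives Sco2 passed in 15, Cmc2 in 14 and Tmem177 in 16. The other 24 lay between -0.23 and 0.48, and the median of the 27 was 0.0, against 0.01 for all tested genes. Neither cytochrome c gene passed: Cycs, the somatic form, had a log2 fold change of -0.04.

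**Figure D4:**
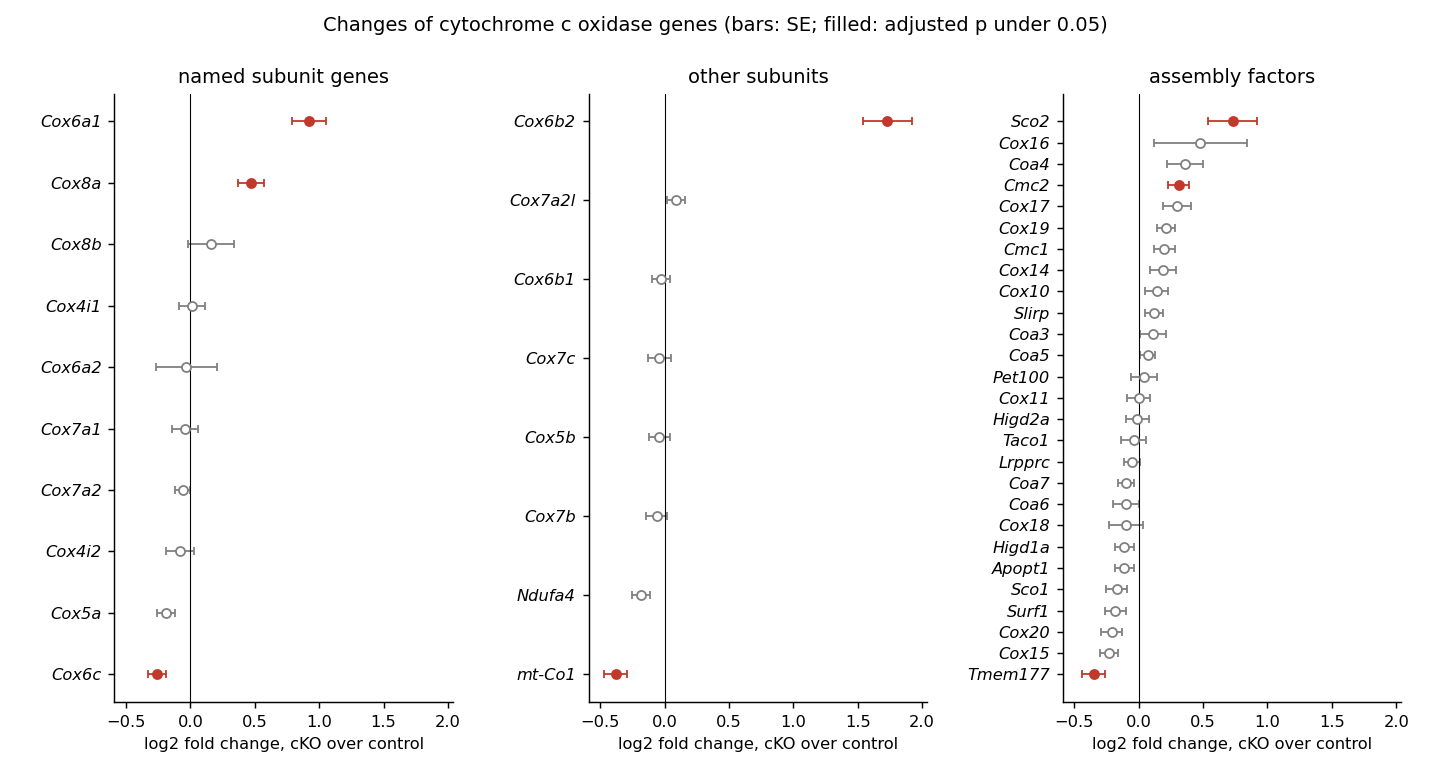
Log2 fold change, cKO over control, with SE bars (x axis) for the 10 named subunit genes, 8 other subunit genes and 27 assembly factors; filled points have an adjusted p under 0.05. Cox6b2 at 1.73 and Cox6a1 at 0.92 stand farthest to the right, and mt-Co1 at -0.38 farthest to the left.

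Markers of the cell types in the ventricle were read beside these genes, and their counts stand against 16.3% of all tested genes that passed, 8.25% higher and 8.03% lower, so that 1 of 8 is near the background. Of 8 cardiomyocyte markers 1 passed, Pln, a regulator of the calcium pump, with a log2 fold change of -0.45, and the list summed to 48580 to 56040 CPM in controls and 45020 to 48600 CPM in cKO. Of 8 fibroblast markers 4 passed, all higher in cKO (Col1a1, Col1a2, Tcf21 and Postn), where 8.25% of all tested genes were higher, and their list summed to 6920 to 8209 CPM in controls and 8555 to 9502 CPM in cKO. The other 4 did not pass, at 0.14 for Col3a1, 0.11 for Pdgfra, 0.06 for Lum and -0.04 for Dcn on the log2 scale, so the fibroblast markers did not shift evenly. The fibroblast sum was higher in every cKO library, as were Cox6a1 and Cox8a, which are expressed in most cell types, and its part in their differences was not tested. Of 8 endothelial markers 0 passed, with sums of 1608 to 1758 CPM in controls and 1551 to 1708 CPM in cKO. Of 8 mural cell markers 1 passed, lower, with sums of 1810 to 1916 CPM and 1798 to 2132 CPM. Macrophage markers, of which 0 of 8 passed, summed to 119.6 to 196.4 CPM in controls and 141.0 to 260.1 CPM in cKO, and erythroid markers, of which 0 of 7 passed, to 485.4 to 935.4 CPM and 739.8 to 1144 CPM.

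The muscle isoforms Cox6a2, Cox7a1 and Cox8b are also expressed in skeletal muscle, and Cox7a1 and Cox8b in brown fat. Skeletal muscle markers summed to 1.132 to 1.795 CPM in controls and 1.621 to 2.275 CPM in cKO, and Myod1 and Pax7 had 0 reads in every library. Adipocyte markers summed to 26.03 to 33.42 CPM in controls and 49.15 to 59.56 CPM in cKO, nearly all of it from Cidea, which cardiomyocytes also express. Cidea rose by 0.90 (SE 0.09, edgeR adjusted p = 3.71e-05), and Lep had 0 reads in every library. Ucp1, the defining marker of brown fat, was at 4.92 CPM in cKO replicate 3 and at or below 0.549 CPM in the others.

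The surroundings of Cox6a1 were examined because it was the called gene. Of 19 tested genes that lie at least in part within 250 kb of it, 6 passed, 3 higher and 3 lower, against 16.3% of all tested genes, and the median log2 fold change of the 19 was 0.06. Whether this differs from other regions was not tested. Mlec, an endoplasmic reticulum lectin, rose by 0.32 (SE 0.07, edgeR adjusted p = 0.00754) and Dynll1, a dynein light chain, by 0.31 (SE 0.08, edgeR adjusted p = 0.0194). Msi1, an RNA-binding protein at 2.48 CPM in controls, had a log2 fold change of 0.92 (SE 0.26, edgeR adjusted p = 0.0334) with overlap between the groups. Gatc, of mitochondrial glutaminyl-tRNA synthesis, fell by 0.29 (edgeR adjusted p = 0.027), Pxn, an adaptor of focal adhesions, by 0.29, with overlap (edgeR adjusted p = 0.0157), and Cabp1, a calcium-binding protein, by 0.48 (edgeR adjusted p = 0.0267). The 2 nearest starts, those of Triap1 and Gatc, both lie 7.8 kb from that of Cox6a1, and Triap1 had a log2 fold change of 0.07 (SE 0.08, edgeR adjusted p = 0.574). The 13 genes that did not pass, between -0.14 and 0.33, were Triap1, Srsf9, Gm13830, Coq5, Rnf10, Pop5, Unc119b, Acads, Rpl37rt, Sppl3, Sirt4, Rplp0 and Gcn1l1.

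**Figure D5:**
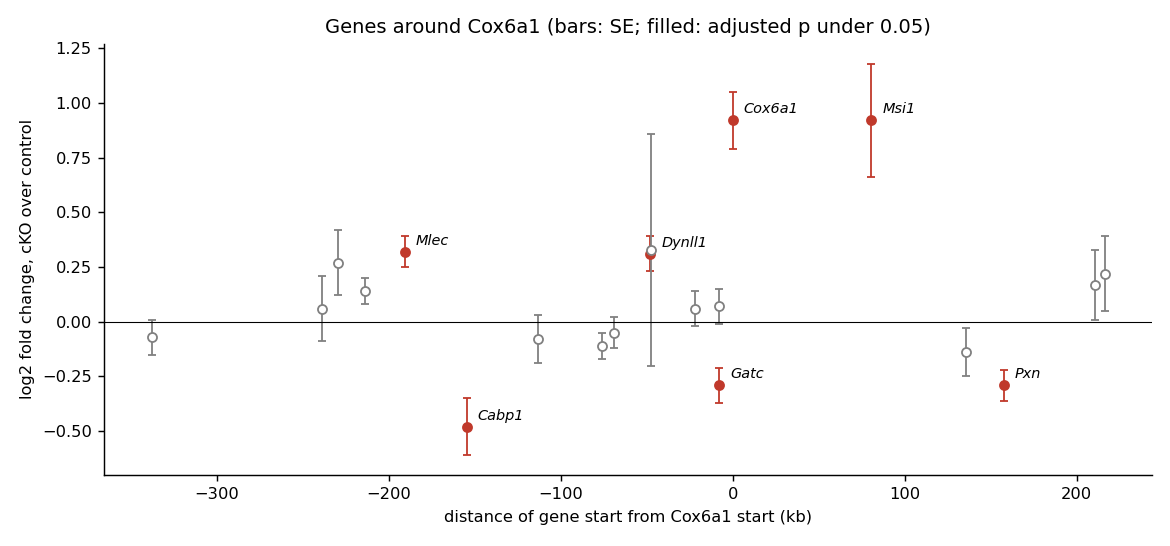
Log2 fold change, cKO over control, with SE bars (y axis) of the 19 tested genes around Cox6a1 and of Cox6a1 itself, by distance of the gene start in kb (x axis); filled points have an adjusted p under 0.05. Filled points lie on both sides of 0, and the nearest neighbours, at 0.07 and -0.29, lie far below Cox6a1 at 0.92.

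Over the 9 libraries the genes whose log2(CPM + 0.5) was most like that of Cox6a1, among 10689 compared, were Rangrf (r = 0.990), Mdfi (r = 0.987), Mif (r = 0.986), Tgm2 (r = 0.985) and Mrpl34 (r = 0.983). The points share their libraries and the split into 2 genotypes, so these values are a description of likeness. All 5 were higher in cKO, from 0.70 for Rangrf to 2.21 for Mdfi on the log2 scale.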

How the data were processed

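RNA from ventricles of 9 P7 mice was sequenced from a stranded poly(A) kit as single 75-base reads. The authors deposited raw counts per gene, and their processing notes name STAR 2.4.2a, HTSeq 0.6.1 and mm10. Whether counting used strand is not given in the sources used here, so opposite-strand genes are uncertain. The table held 0 columns of other samples.

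Symbols came from GENCODE M21 on GRCm38 (36429 of 38293 identifiers, 99.82% of counts), and promoter windows from RefSeq. All genes kept by filterByExpr (minimum count 10) were tested by edgeR 4.0.16 in R 4.3.3 (quasi-likelihood F test, TMM scaling, robust, genotype only, two-sided, Benjamini-Hochberg over 15318 genes). A called gene had an adjusted p under 0.05 and a fold over 1.5. Each SE of a log2 fold change is its size over the square root of F. Each SE of a ratio difference comes from the variances of the log2 ratio in control and cKO. The study's own test was DESeq2, run here as an alternative (1.42.0). The reported isoform ratios used no added counts, and 0.5 added counts were an alternative. The code was tested on simulated data.

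The study's methods and legend give different numbers of controls; all 5 labelled ones were used. Each replicate is 1 deposited sample. The genes and lists were chosen with earlier results of these data known, so no list test was run and no p was adjusted over the 10 genes. All 10 genes were named, other genes of the enzyme if past the adjusted p threshold (at most 5 per list by size of change), and for the called gene its tested neighbours within 250 kb and the 5 most similar genes of at least 5 CPM. Alternatives were other scalings and filters, DESeq2, the replicate block, the library set, leaving out each library and, for ratios, other lengths. Removal of GC and length trends was added after seeing the data, and principal transcript lengths were also not planned.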

Additional observations from a re-analysis of the deposited data

Results flagged for a closer look

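Of 28 groups of values examined for a library far from the rest, 2 held one, and chance alone marks about 1 in 20 groups. Cox7a1 was lowest in cKO replicate 4, at 152.7 CPM, with a gap to the next library of 0.839 of the group's range, and this library was the only Rps3a3-high one among the cKO. Cox7a2 was lowest in control replicate 5, at 400.0 CPM, with a gap of 0.746 of the range.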

How the results depend on the processing

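Cox6a1, Cox8a and Cox6c kept their direction in all 19 alternatives. In the 5 Rps3a3-low libraries, which give fewer samples, 5.44% of all genes tested passed, and 0 of the 10 genes passed, 0 were called, and 0 assembly factors and 0 mitochondrial subunit genes passed, while Cox6b2 did. Assembly factors past the threshold, 3 as reported, numbered 5 with DESeq2, 1 with the replicate block, 6 with the library set as a term and 8 with GC and length trends removed. The share of all genes tested that passed, 16.3% as reported, was 18.3%, 11.3%, 19.9% and 23.0% in these fits; the cause was not tested. Directions of values near 0 turned. Cox4i1 was -0.03 with the replicate block, -0.09 with the library set as a term, -0.11 in the Rps3a3-low libraries and -0.14 without GC and length trends. Cox8b was -0.02 with the library set as a term and -0.06 in the Rps3a3-low libraries. The ratio difference of Cox7a1 to Cox7a2 was -0.05 within the sets and -0.03 in the Rps3a3-low libraries, and that of Cox4i2 to Cox4i1 was 0.01 there.

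The ratio difference of Cox6a2 to Cox6a1 was -1.14 within the sets (exact permutation, adjusted p = 0.05), -1.04 in the Rps3a3-low libraries (adjusted p = 0.2) and -0.96 with the replicate block (adjusted p = 0.25); the smallest unadjusted p these designs allow are 0.025, 0.1 and 0.125. The deviations of same-numbered libraries from their group means correlated at 0.0107 to 0.232. Libraries with different numbers were not compared in this way, so whether the numbers pair them was not tested. The block changed no call of the 10 genes.

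Leaving out 1 library at a time, 2 to 4 of the 10 genes passed, 1 was called, and 2 to 4 assembly factors passed, where 12.3% to 16.9% of all genes tested passed and 5.88% to 7.55% were called. The change of Cox4i1 was -0.06 to 0.07, of Cox6a2 -0.27 to 0.09 and of Cox7a1 -0.11 to 0.02. That of Cox8b was 0.04 to 0.28 and that of Cox4i2 -0.15 to -0.01. The ratio difference of Cox6a2 to Cox6a1 was -1.02 to -0.79 with adjusted p of 0.0571 to 0.114 by exact permutation, as fewer libraries raise the smallest p, and that of Cox7a1 to Cox7a2 was -0.02 to 0.08.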
